A study of Homo sapiens with 12 samples.

Results

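The genes described here are 37 genes of cholesterol and fatty acid synthesis, of the SREBP system that controls them and of cholesterol movement. They were listed by symbol, with earlier results of these data known, and all 37 were found among the 17197 gene symbols of the deposited table. The libraries came from AC16, a long-used human line obtained by fusion of adult ventricular heart cells and transformed fibroblasts. It is 1 line, so it stands for no range of donors. Of the 4 groups of 3 libraries, siEP300.H2O2 received an siRNA against EP300 and then hydrogen peroxide (H2O2), siNC.H2O2 a negative control siRNA and then H2O2, siEP300 the EP300 siRNA alone, and siNC the control siRNA alone. All 4 groups thus carried a transfected siRNA. Transfection was done in medium without serum, which was later replaced by complete medium. H2O2 was given 12 h after transfection for 1 h, and RNA was taken after 48 h. The label gives the H2O2 dose as 200 mM, a unit that is uncertain. The titles and the protocol name EP300 as the target, whereas MLF1 stands in the labels' treatment entry of the same libraries. Nothing in the labels says that replicate libraries are independent cultures, so the p-values rest on the spread among the libraries alone, which may be technical.

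Cholesterol is built from acetyl-CoA through mevalonate to farnesyl diphosphate, then through squalene and lanosterol, while fatty acids are built from cytosolic acetyl-CoA and then elongated and desaturated. The SREBP transcription factors are held in the endoplasmic reticulum by SCAP and INSIG proteins when sterols are plentiful. When sterols are scarce they move to the Golgi, are cleaved, and switch on most of the enzymes of both pathways, as well as INSIG1 itself. EP300 is a histone acetyltransferase and transcriptional coactivator. The 37 genes were grouped as 7 of the mevalonate segment, 11 of the sterol branch, 5 of SREBP control, 5 of cholesterol movement and uptake control, and 9 of fatty acid supply, synthesis and modification.

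The promoters of 6 of these genes are shown because the results below turn on them: SREBF2 is the sterol regulator that was lower in each comparison of 2 groups, HMGCS1 and INSIG1 are textbook SREBP targets, and INSIG1, DHCR7, TM7SF2 and NPC1 differed in their EP300 siRNA effect with and without H2O2. Each line gives the 250 bases before the start site in RefSeq, build GRCh38.p14, 5′ to 3′ on the gene's strand. Capitals mark a sterol response element, a CCAAT box (read as ATTGG on the other strand) or an E-box.
SREBF2, chr22:41832855-41833104, plus strand: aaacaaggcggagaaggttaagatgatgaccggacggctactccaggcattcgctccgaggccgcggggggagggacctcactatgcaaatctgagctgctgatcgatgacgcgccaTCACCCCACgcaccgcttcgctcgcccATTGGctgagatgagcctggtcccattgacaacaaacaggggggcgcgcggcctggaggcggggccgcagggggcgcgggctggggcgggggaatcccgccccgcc
INSIG1, chr7:155297628-155297877, plus strand: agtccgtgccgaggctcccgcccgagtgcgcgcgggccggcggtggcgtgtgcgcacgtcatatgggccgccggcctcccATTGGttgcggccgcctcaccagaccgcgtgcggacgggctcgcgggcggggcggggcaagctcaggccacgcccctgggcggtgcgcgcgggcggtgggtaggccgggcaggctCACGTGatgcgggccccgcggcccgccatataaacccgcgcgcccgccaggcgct
HMGCS1, chr5:43313413-43313662, minus strand: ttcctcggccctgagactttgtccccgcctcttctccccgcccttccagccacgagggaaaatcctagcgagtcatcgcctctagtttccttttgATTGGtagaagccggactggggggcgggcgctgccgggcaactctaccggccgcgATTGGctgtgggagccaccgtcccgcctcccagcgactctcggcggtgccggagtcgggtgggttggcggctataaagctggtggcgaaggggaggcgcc
DHCR7, chr11:71448394-71448643, minus strand: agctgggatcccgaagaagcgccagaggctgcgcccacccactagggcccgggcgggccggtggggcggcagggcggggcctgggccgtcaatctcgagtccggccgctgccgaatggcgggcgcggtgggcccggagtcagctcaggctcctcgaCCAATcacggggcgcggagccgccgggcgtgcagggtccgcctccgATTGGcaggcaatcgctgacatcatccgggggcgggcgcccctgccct
TM7SF2, chr11:65111622-65111871, plus strand: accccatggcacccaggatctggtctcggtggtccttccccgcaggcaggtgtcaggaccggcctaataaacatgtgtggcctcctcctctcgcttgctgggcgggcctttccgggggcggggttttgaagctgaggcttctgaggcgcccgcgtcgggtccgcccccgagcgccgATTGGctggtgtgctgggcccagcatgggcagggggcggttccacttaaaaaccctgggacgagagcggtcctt
NPC1, chr18:23586507-23586756, minus strand: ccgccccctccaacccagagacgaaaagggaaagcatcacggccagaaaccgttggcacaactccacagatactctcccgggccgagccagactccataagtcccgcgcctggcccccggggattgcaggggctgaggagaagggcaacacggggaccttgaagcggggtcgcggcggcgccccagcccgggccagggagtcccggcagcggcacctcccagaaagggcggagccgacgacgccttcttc

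RefSeq promoter windows of 300 bases, 250 before and 50 after the start, were matched for 33 of the 37 genes. ACAT2, FDFT1, SQLE and FASN were not matched. For the 11 genes with several windows the first listed was read. The sterol response element TCACNCCAC was searched on both strands, and of the 33 windows it was found in SREBF2, at position -133 from the start (3.03%, against 1.15% of 10664 tested genes with 1 window each). Only this string was searched, so a window without a match is not shown to lack a sterol response element. CCAAT was found on either strand in 20 windows (60.6%), against 36.6% of those genes. The GC box GGGCGG, which is not capitalised above, was found in 31 windows (93.9%), against 69.8%. The E-box CACGTG was found in 5 windows (15.2%), those of LSS, SC5D, INSIG1, SCAP and ABCA1, against 10.0%. Over all 35116 windows of this length the shares were 1.13%, 34.6%, 45.0% and 7.26% in the same order. The NPC1 window held GC boxes but none of the other 3 motifs. In the promoters shown, no capitalised motif overlaps another, and a match is a description of the sequence.

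Each library held between 16081437 and 19033679 estimated counts, and 13171 genes, all 37 members included, passed the filter on low counts. Levels are given as CPM, the counts of a gene relative to the library total after scaling by edgeR's TMM factors. A gene was called higher or lower at a Benjamini-Hochberg adjusted p under 0.05 in edgeR's quasi-likelihood test over all tested genes, and every adjusted p below is from that test. EP300 itself had 30.1, 26.9 and 26.5 CPM in siEP300.H2O2 and 59.9, 80.4 and 89.9 CPM in siNC.H2O2, then 36.3, 36.8 and 36.7 CPM in siEP300 and 101, 69.1 and 80.1 CPM in siNC. The EP300 siRNA libraries were all below the control siRNA libraries (log2 fold change -1.46 ± 0.14 SE with H2O2 and -1.19 ± 0.14 SE without, adjusted p = 5.9e-07 and 3.6e-06). Within groups the libraries spread along an axis that held 40.1% of the within-group variance, whose loading correlated by rank with transcript length at 0.64 across 12868 genes. Its ends were siNC library 1 at 13.8 and siNC.H2O2 library 7 at -12.6, so counts without both are given where they moved by over 1.5 times. The labels call the cells cardiomyocytes, but of 12 cardiomyocyte markers NPPB, DES and TNNI3 alone passed the filter, and the sarcomere genes MYH6, MYH7, MYL2 and TNNT2 had group means between 0 and 0.0873 CPM. All 8 fibroblast markers passed. The libraries come from 1 line, so marker levels here are RNA levels of that line and do not count cells of other types. In such bulk libraries a lower level can come from fewer cells that express a gene or from less RNA per cell, and these cannot be told apart.

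The levels per gene length were highest for FDPS, the farnesyl diphosphate synthase, NPC2, a lysosomal cholesterol carrier, and FDFT1, the squalene synthase, which held the first 3 ranks by mean FPKM in each of the 4 groups. ABCA1, INSIG2 and LPIN1 held the last 3 ranks in each group. Summed over the 37 genes, the FPKM level was 2214 ± 34 in siEP300.H2O2, 2346 ± 40 in siNC.H2O2, 2999 ± 48 in siEP300 and 2935 ± 44 in siNC (SD, n = 3 each). The summed level thus stood lower in both groups that received H2O2. The mevalonate segment summed to 693, 648, 931 and 845 FPKM in the same order of groups, and SREBP control to 158, 168, 298 and 251 FPKM. The fatty acid genes summed to 432, 534, 671 and 734 FPKM. The sum over the 5 genes of cholesterol movement stood apart from these, with 356 ± 14 FPKM in siEP300.H2O2, 340 ± 21 in siNC.H2O2, 353 ± 14 in siEP300 and 320 ± 20 in siNC (SD, n = 3 each). NPC2 alone had means of 288, 265, 272 and 245 FPKM in the same order of groups. This sum therefore mostly follows NPC2 and does not show the changes of the other genes.

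**Figure D1:**
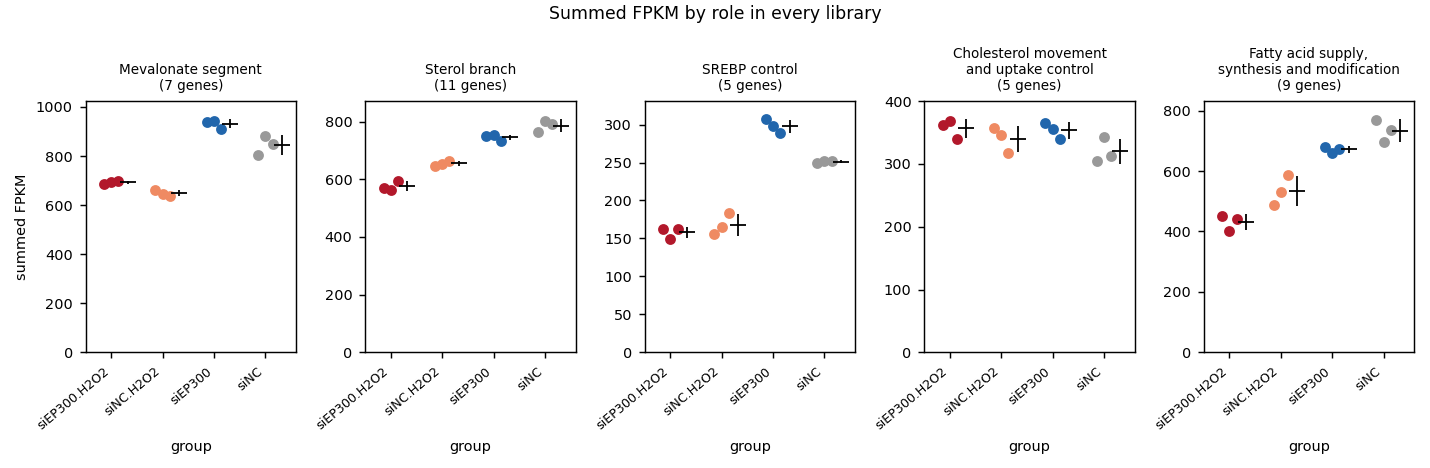
Summed FPKM (vertical axis) of the genes of each role in every library (points) of the 4 groups (horizontal axis), with mean and SD as bars (n = 3). The summed mevalonate level was 693 and 648 FPKM in the H2O2 groups siEP300.H2O2 and siNC.H2O2, against 931 and 845 FPKM in siEP300 and siNC. The sum of the cholesterol movement genes, most of it from NPC2, overlapped between groups.

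H2O2 was followed by lower levels of many of the 37 genes, though with control siRNA this held for 3 of the 9 fatty acid genes. With EP300 siRNA, 24 of the 37 genes were lower in siEP300.H2O2 than in siEP300, where 15.1% of all tested genes were lower, and none was higher, where 15.9% were. With control siRNA, 18 were lower in siNC.H2O2 than in siNC, against 17.4% of all tested genes, and 2 were higher, against 17.8%. The median log2 fold change of the 37 was -0.29 with EP300 siRNA and -0.22 with control siRNA, beside -0.000381 and -0.00808 over all tested genes. Estimates were below 0 for 33 and 29 of the 37. Because the 37 were chosen with earlier results of these data known, their contrast with all tested genes is a description and no test of the pathways. These 2 H2O2 comparisons share no library, and 16 genes were lower in both, which is 66.7% of those lower with EP300 siRNA and 88.9% of those lower with control siRNA. The like overlap over all tested genes was not taken, so these percentages have no background to be read against. With EP300 siRNA, where none of the 37 was called higher, 1 was at an unadjusted p under 0.05 in edgeR, and DESeq2 called 1 (ABCA1, log2 fold change 0.36, adjusted p = 0.036). Calls of MVD, FDFT1, CYP51A1, NSDHL and ACSS2 with EP300 siRNA, and of MVD and INSIG2 with control siRNA, were lost under some alternative, while the other 19 and 16 lower calls held in every alternative run. The RNA of cell type markers also moved with H2O2: smooth muscle markers summed to 541 to 674 CPM in siEP300.H2O2 and 481 to 488 CPM in siEP300, and to 402 to 465 CPM in siNC.H2O2 and 311 to 332 CPM in siNC. The 4 epithelial markers summed to 442 to 519 CPM in siEP300.H2O2 and 323 to 329 CPM in siEP300, and to 569 to 620 CPM in siNC.H2O2 and 351 to 393 CPM in siNC. Of these 4, 2 were higher with either siRNA, and 1 was lower with control siRNA. Of the 5 tested endothelial markers, 1 was higher and 1 lower after H2O2 with either siRNA. Of the 3 tested cardiomyocyte markers, 1 was higher and 1 lower with control siRNA, and none was called with EP300 siRNA. The 3 leukocyte markers summed to 68.0 to 80.8 CPM in siEP300.H2O2 and 42.0 to 46.2 CPM in siEP300, and to 52.8 to 54.7 CPM in siNC.H2O2 and 34.4 to 42.9 CPM in siNC. Of the 8 fibroblast markers, 5 were lower and 1 higher after H2O2 with EP300 siRNA, and they summed to 9952 to 10308 CPM in siEP300.H2O2 and 12102 to 12547 CPM in siEP300. With control siRNA 3 of the 8 were lower and 3 higher, with sums of 11021 to 11854 CPM in siNC.H2O2 and 10250 to 10865 CPM in siNC. The part of these marker changes in the lower levels was not tested.

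In the mevalonate segment, 6 of 7 genes fell after H2O2 with either siRNA. HMGCS1 makes HMG-CoA, the substrate of the rate-limiting step. It had 571, 483 and 529 CPM in siEP300.H2O2, 385, 411 and 466 CPM in siNC.H2O2, 864, 806 and 843 CPM in siEP300, and 586, 553 and 532 CPM in siNC. The H2O2 libraries of each siRNA lay below the matching libraries without H2O2, with no overlap. The log2 fold change was -0.67 ± 0.07 SE with EP300 siRNA and -0.40 ± 0.07 SE with control siRNA (adjusted p = 1.2e-05 and 0.00072). MVK, the mevalonate kinase, fell by 0.49 and 0.47 on the log2 scale with EP300 and control siRNA, FDPS by 0.40 and 0.30, and ACAT2, which joins acetyl-CoA units, by 0.32 in both. IDI1, the isopentenyl diphosphate isomerase, fell by 0.29 and 0.22, and MVD, the mevalonate diphosphate decarboxylase, by 0.24 and 0.22. PMVK, the phosphomevalonate kinase, was not called, with estimates of 0.03 and -0.34.

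In the sterol branch, 8 of 11 genes were lower after H2O2 with EP300 siRNA and 5 of 11 with control siRNA. Of the 11, TM7SF2 and DHCR7 alone were called in the interaction described below, with all 12 libraries. The 2 counts by themselves do not show that the H2O2 effect differed with the siRNA. SQLE, the squalene epoxidase, had 116, 104 and 117 CPM in siEP300.H2O2, 126, 131 and 159 CPM in siNC.H2O2, 175, 166 and 175 CPM in siEP300, and 181, 175 and 173 CPM in siNC. All H2O2 libraries were below all libraries without it, and the log2 fold change was -0.62 ± 0.08 SE with EP300 siRNA and -0.34 ± 0.08 SE with control siRNA. DHCR7 carries out a last reduction to cholesterol. It had 65.0, 59.7 and 65.6 CPM in siEP300.H2O2, 78.0, 76.0 and 83.0 CPM in siNC.H2O2, 113, 105 and 109 CPM in siEP300, and 104, 103 and 108 CPM in siNC. The 4 groups were thus ordered with siEP300.H2O2 lowest, then siNC.H2O2, with both groups without H2O2 overlapping above them. DHCR7 fell by 0.78 with EP300 siRNA and by 0.41 with control siRNA on the log2 scale (adjusted p = 1.4e-07 and 5.7e-05).

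TM7SF2, a sterol reductase of the same branch, had 13.4, 13.3 and 14.5 CPM in siEP300.H2O2, 11.4, 11.8 and 11.7 CPM in siNC.H2O2, 14.7, 15.1 and 15.1 CPM in siEP300, and 19.4, 24.3 and 21.7 CPM in siNC. It was highest in the siNC libraries, and the other 3 groups, which did not overlap, lay between 11.4 and 15.1 CPM. After H2O2 it fell by 0.91 ± 0.09 SE with control siRNA (adjusted p = 1.5e-06), while with EP300 siRNA its log2 fold change of -0.13 was not called. LSS, which closes the sterol ring, fell by 0.39 and 0.45 with EP300 and control siRNA, and MSMO1, a sterol methyl oxidase, by 0.54 and 0.31. FDFT1, CYP51A1, NSDHL and SC5D, the last 3 of them enzymes between lanosterol and cholesterol, fell after H2O2 with EP300 siRNA by 0.22, 0.19, 0.17 and 0.31, and were not called with control siRNA. HSD17B7 and EBP, of the same stretch, were called in neither. EBP had an estimate of -0.27 with EP300 siRNA (adjusted p = 0.056) and was called lower in 12 of 21 alternatives.

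Among the regulators, the 2 SREBP genes both fell after H2O2. SREBF2, which encodes the SREBP that mainly drives sterol genes, had 176, 169 and 181 CPM in siEP300.H2O2, 236, 258 and 283 CPM in siNC.H2O2, 280, 275 and 267 CPM in siEP300, and 380, 359 and 373 CPM in siNC. The siNC libraries were highest, siEP300.H2O2 lowest, and siNC.H2O2 and siEP300 overlapped between them. Its log2 fold change after H2O2 was -0.64 ± 0.06 SE with EP300 siRNA and -0.52 ± 0.06 SE with control siRNA (adjusted p = 2.8e-06 and 1.4e-05). SREBF1, whose product mainly drives fatty acid genes, had 60.5, 66.4 and 64.9 CPM in siEP300.H2O2, 70.0, 61.0 and 67.4 CPM in siNC.H2O2, 111, 108 and 106 CPM in siEP300, and 95.8, 105 and 105 CPM in siNC. Here the H2O2 libraries lay below all others whichever siRNA was used. SREBF1 fell by 0.76 with EP300 siRNA and by 0.62 with control siRNA on the log2 scale (adjusted p = 6.1e-07 and 3.0e-06).

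INSIG1 and INSIG2 encode the proteins that keep SREBP and SCAP in the endoplasmic reticulum. INSIG1 had 235, 196 and 229 CPM in siEP300.H2O2, 166, 183 and 215 CPM in siNC.H2O2, 516, 491 and 480 CPM in siEP300, and 283, 287 and 286 CPM in siNC. The siEP300 libraries stood far above all others, and the 2 H2O2 groups overlapped. After H2O2 INSIG1 had a log2 fold change of -1.17 ± 0.08 SE with EP300 siRNA and -0.60 ± 0.08 SE with control siRNA (adjusted p = 1.2e-07 and 6.5e-05). INSIG2 had 16.7, 18.1 and 18.2 CPM in siEP300.H2O2, 21.4, 20.9 and 23.4 CPM in siNC.H2O2, 20.5, 19.6 and 19.2 CPM in siEP300, and 26.7, 24.7 and 26.5 CPM in siNC. It fell by 0.25 after H2O2 with control siRNA, while its estimate of -0.16 with EP300 siRNA was not called. SCAP, the SREBP escort protein, had 68.9, 68.0 and 73.8 CPM in siEP300.H2O2, 72.2, 72.9 and 74.2 CPM in siNC.H2O2, 68.6, 65.9 and 66.5 CPM in siEP300, and 65.7, 71.0 and 69.5 CPM in siNC. It was called in no comparison, and its 5 estimates lay between -0.06 and 0.09. On deposited FPKM, SCAP was called lower with EP300 siRNA without H2O2 (-0.16 or -0.17, adjusted p = 0.028 to 0.029 in limma). As a ratio of FPKM levels, INSIG1 over INSIG2 was 15.3 ± 1.87 in siEP300.H2O2, 10.5 ± 0.88 in siNC.H2O2, 30.8 ± 0.45 in siEP300 and 13.6 ± 0.80 in siNC (SD, n = 3 each).

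**Figure D2:**
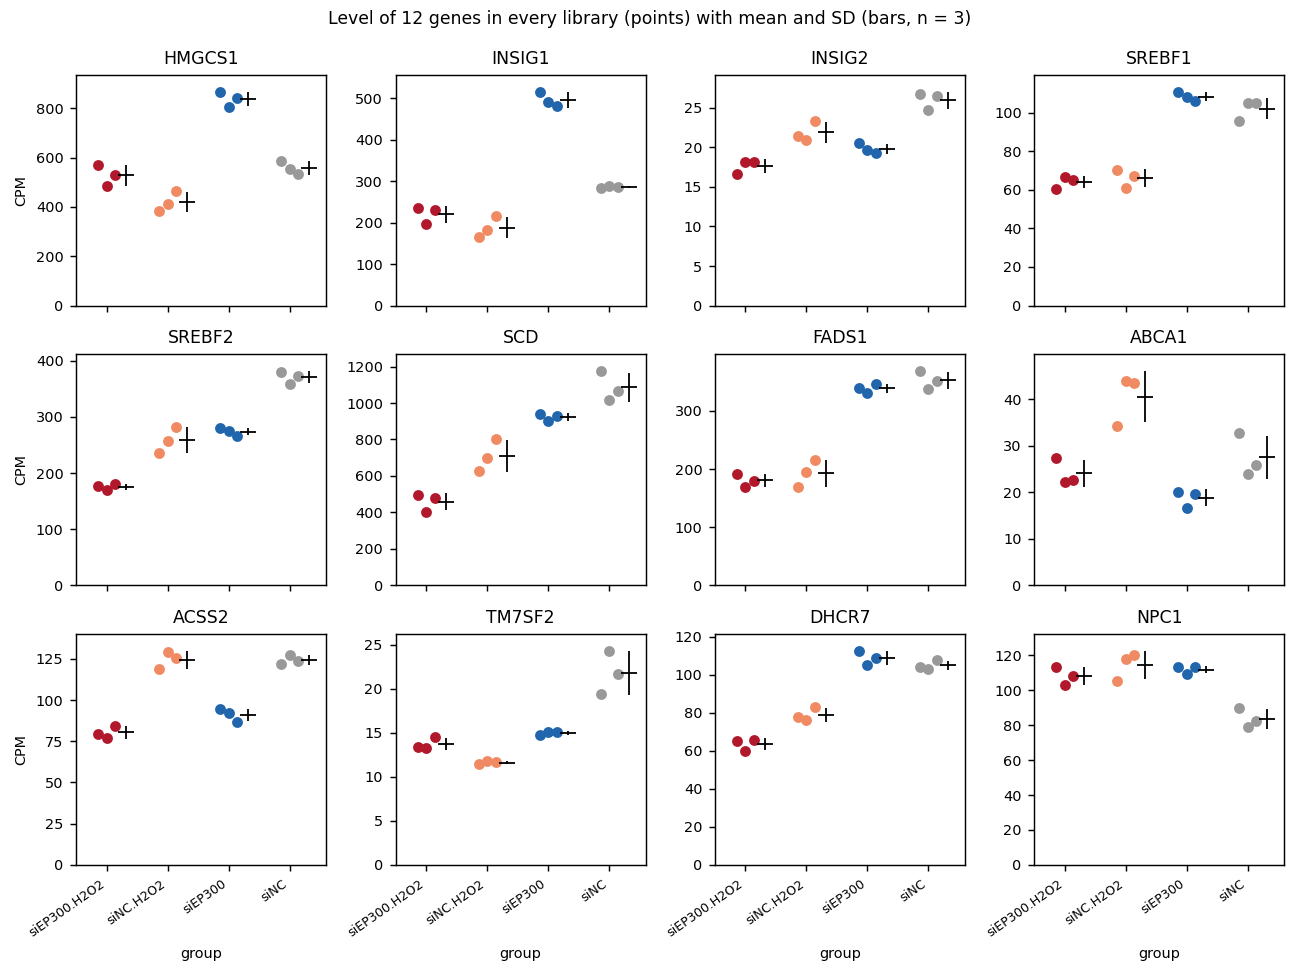
CPM (vertical axis) of 12 genes in every library (points) of the 4 groups (horizontal axis), with mean and SD as bars (n = 3). INSIG1 reached 480 to 516 CPM in siEP300 and 283 to 287 CPM in siNC, and SREBF1 and FADS1 lay lower in both H2O2 groups than in both groups without it.

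Of the 9 fatty acid genes, 6 fell after H2O2 with EP300 siRNA and 3 with control siRNA. With all 12 libraries, none of the 9 was called in the interaction described below. These counts alone therefore do not show that the H2O2 effect differed with the siRNA. The desaturases were the ones that fell with both siRNAs. SCD, which makes monounsaturated fatty acids, had 493, 404 and 478 CPM in siEP300.H2O2, 624, 698 and 803 CPM in siNC.H2O2, 941, 899 and 928 CPM in siEP300, and 1174, 1015 and 1068 CPM in siNC. The groups did not overlap, and the log2 fold change was -1.01 ± 0.09 SE with EP300 siRNA and -0.62 ± 0.09 SE with control siRNA (adjusted p = 1.3e-06 and 0.00010). FADS1, a desaturase of polyunsaturated fatty acids, had 192, 170 and 180 CPM in siEP300.H2O2, 169, 196 and 215 CPM in siNC.H2O2, 340, 331 and 346 CPM in siEP300, and 368, 337 and 352 CPM in siNC. H2O2 libraries and libraries without it were separate, whereas the siRNAs overlapped; the log2 fold change was -0.91 ± 0.08 SE with EP300 siRNA and -0.87 ± 0.08 SE with control siRNA.

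FADS2, the desaturase of the step before FADS1, had 228, 213 and 236 CPM in siEP300.H2O2, 260, 262 and 296 CPM in siNC.H2O2, 396, 383 and 397 CPM in siEP300, and 391, 396 and 418 CPM in siNC. It lay lower with H2O2 in all libraries and fell by 0.80 with EP300 siRNA and by 0.56 with control siRNA on the log2 scale. FASN, the fatty acid synthase, fell by 0.55 with EP300 siRNA (adjusted p = 8.3e-05), and its estimate of -0.16 with control siRNA was not called. ACACA, which makes malonyl-CoA, and ACSS2, which activates acetate, fell by 0.37 and 0.18 with EP300 siRNA. ACLY, which cleaves citrate to acetyl-CoA, ELOVL6, an elongase, and LPIN1, a phosphatidate phosphatase, were called in neither H2O2 comparison.

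Of the 5 genes of cholesterol movement, none rose and 1 fell after H2O2 with EP300 siRNA, while 2 rose and none fell with control siRNA. ABCA1, which exports cholesterol to lipoproteins, had 27.5, 22.2 and 22.6 CPM in siEP300.H2O2, 34.2, 43.9 and 43.6 CPM in siNC.H2O2, 20, 16.7 and 19.6 CPM in siEP300, and 32.7, 23.9 and 25.9 CPM in siNC. With either siRNA the H2O2 libraries lay above those without it. It rose with control siRNA (log2 fold change 0.56 ± 0.12 SE, adjusted p = 0.0029), and its estimate of 0.36 ± 0.13 SE with EP300 siRNA had an adjusted p of 0.054. NPC1, which moves cholesterol out of lysosomes, had 113, 103 and 108 CPM in siEP300.H2O2, 105, 118 and 120 CPM in siNC.H2O2, 113, 109 and 113 CPM in siEP300, and 89.7, 79.0 and 82.2 CPM in siNC. The siNC libraries were lowest and the other 3 groups overlapped. NPC1 rose after H2O2 with control siRNA (log2 fold change 0.45 ± 0.07 SE, adjusted p = 8.8e-05) and had an estimate of -0.05 with EP300 siRNA. STARD4, a cholesterol transfer protein, fell by 0.40 with EP300 siRNA, while NPC2 and MYLIP, the ligase that marks lipoprotein receptors for breakdown, were called in neither H2O2 comparison.

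**Figure D3:**
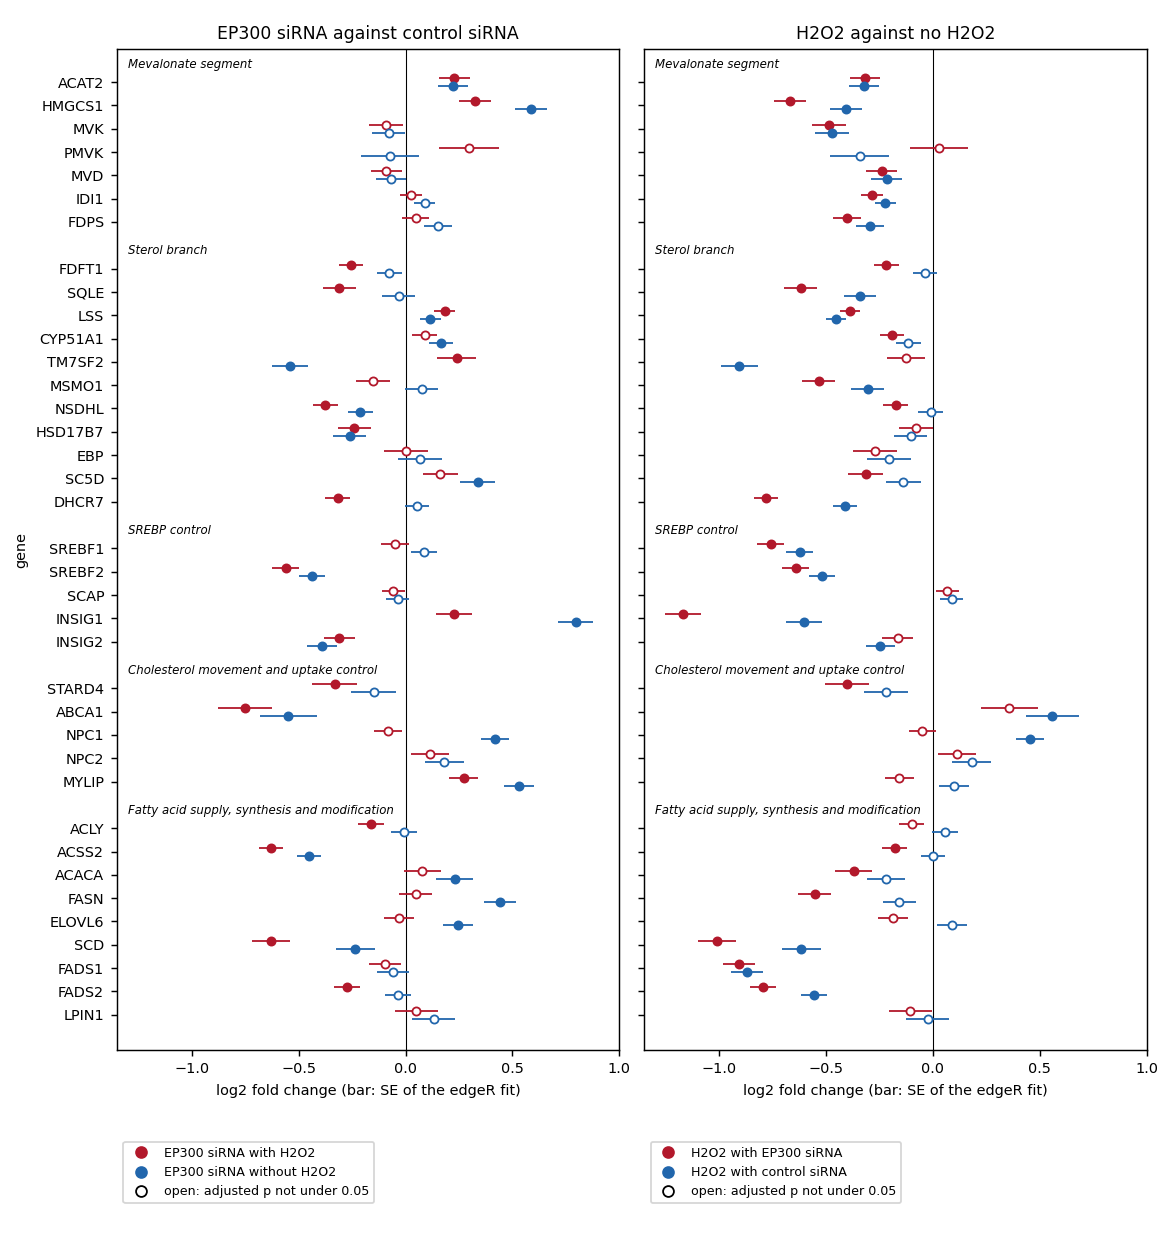
Log2 fold change (horizontal axis, bars are the SE of the edgeR fit) of each of the 37 genes (vertical axis, by role) for EP300 siRNA against control siRNA (left) and for H2O2 against no H2O2 (right); filled points had an adjusted p under 0.05. Of the 37 genes, 24 were lower after H2O2 with EP300 siRNA and 18 with control siRNA, while the EP300 siRNA effects ran in both directions.

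EP300 siRNA moved the 37 genes in both directions, as it did the tested genes at large. The counts that follow lie near or under the shares of all tested genes, so they mark no trait of the 37. With H2O2, 6 of the 37 were higher in siEP300.H2O2 than in siNC.H2O2, where 28.4% of all tested genes were, and 13 were lower, where 30.6% were. Without H2O2, 11 were higher in siEP300 than in siNC, against 30.1% of all tested genes, and 8 were lower, against 31.4%. The median log2 fold change was -0.06 with H2O2 and 0.05 without, beside -0.0186 and -0.00424 over all tested genes. These comparisons share no library with each other, though each shares its groups with the H2O2 comparisons. HMGCS1, ACAT2, LSS, INSIG1 and MYLIP were higher in both, which is 83.3% of those higher with H2O2 and 45.5% of those higher without. NSDHL, HSD17B7, INSIG2, SREBF2, ABCA1, ACSS2 and SCD were lower in both, which is 53.8% and 87.5%. For these overlaps too, the share over all tested genes was not taken. TM7SF2 was higher with H2O2 (0.24 ± 0.09 SE, adjusted p = 0.033) and lower without (-0.54 ± 0.08 SE, adjusted p = 5.3e-05). Its call with H2O2 was lost without any of siNC.H2O2 libraries 7, 8 and 9 or siEP300.H2O2 library 12, with adjusted p between 0.055 and 0.11. The count higher without H2O2 was 7 with upper-quartile factors and 6 or 7 on the deposited FPKM values. Calls that were lost under some alternative were those of ACAT2, TM7SF2, INSIG1, HSD17B7, STARD4 and ACLY with H2O2, and of ACAT2, LSS, CYP51A1, ACACA, ELOVL6, HSD17B7 and SCD without.

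In the mevalonate segment with EP300 siRNA, HMGCS1 rose by 0.33 ± 0.07 SE with H2O2 and by 0.59 ± 0.07 SE without on the log2 scale (adjusted p = 0.0016 and 7.9e-06), and ACAT2 by 0.23 and 0.22. The other 5 genes of the segment were called in neither. FDPS had an estimate of 0.15 without H2O2 (adjusted p = 0.052) and was called higher in 10 of 21 alternatives. In the sterol branch LSS rose by 0.18 and 0.12, though its call without H2O2 was lost in 13 of 21 alternatives. NSDHL fell by 0.38 and 0.21 and HSD17B7 by 0.24 and 0.26. FDFT1, SQLE and DHCR7 fell with H2O2 by 0.26, 0.31 and 0.32, and had estimates of -0.08, -0.03 and 0.05 without. SC5D and CYP51A1 rose without H2O2 by 0.34 and 0.17, and MSMO1 and EBP were called in neither.

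The regulators diverged under EP300 siRNA. SREBF2 had a log2 fold change of -0.56 ± 0.06 SE with H2O2 and -0.44 ± 0.06 SE without (adjusted p = 2.1e-06 and 2.2e-05), while SREBF1 was called in neither (-0.05 and 0.09). The ratio of SREBF2 to SREBF1 in FPKM was 2.13 in siEP300.H2O2, 2.91 in siNC.H2O2, 1.98 in siEP300 and 2.72 in siNC. INSIG2 fell by 0.31 with H2O2 and by 0.39 without. INSIG1 rose by 0.23 ± 0.08 SE with H2O2, where its libraries overlapped between the groups, and by 0.80 ± 0.08 SE without (adjusted p = 0.030 and 1.1e-06). The call with H2O2 was lost without siNC.H2O2 library 7 or 8, or siEP300.H2O2 library 10 or 12, (adjusted p between 0.088 and 0.13).

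Among the fatty acid genes, ACSS2, which supplies acetyl-CoA from acetate, had 79.6, 77.0 and 84.4 CPM in siEP300.H2O2, 119, 129 and 125 CPM in siNC.H2O2, 94.3, 91.9 and 86.7 CPM in siEP300, and 122, 128 and 124 CPM in siNC. All EP300 siRNA libraries were below all control siRNA libraries, with a log2 fold change of -0.63 ± 0.06 SE with H2O2 and -0.45 ± 0.06 SE without (adjusted p = 2.4e-07 and 6.9e-06). SCD fell by 0.63 with H2O2 and by 0.23 without, FADS2 by 0.27 with H2O2, and ACLY by 0.16 with H2O2. FASN rose by 0.44 without H2O2 (adjusted p = 0.00016), as did ELOVL6 by 0.24 and ACACA by 0.23, and none of these 3 was called with H2O2. The FPKM ratio of SCD to FASN was therefore lower with EP300 siRNA, at 2.16 in siEP300.H2O2, 3.45 in siNC.H2O2, 2.98 in siEP300 and 4.75 in siNC. FADS1 and LPIN1 were called in neither.

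Of the genes of cholesterol movement, ABCA1 had a log2 fold change of -0.75 ± 0.13 SE with H2O2 and -0.55 ± 0.13 SE without (adjusted p = 0.00013 and 0.0022). MYLIP rose by 0.27 with H2O2 and by 0.53 without. NPC1 rose by 0.42 without H2O2, and STARD4 fell by 0.33 with H2O2. Endothelial markers moved with EP300 siRNA: all 5 tested of 6 were lower with H2O2 and 4 of 5 without. Their summed level was 9.8 to 11 CPM in siEP300.H2O2, 32.1 to 36.5 CPM in siNC.H2O2, 10.5 to 12.9 CPM in siEP300 and 33.4 to 41.3 CPM in siNC. Of the 3 tested smooth muscle markers, 2 were higher and 1 lower in both comparisons, with sums of 541 to 674 CPM in siEP300.H2O2, 402 to 465 CPM in siNC.H2O2, 481 to 488 CPM in siEP300 and 311 to 332 CPM in siNC. Of the 4 epithelial markers, 3 were lower with H2O2 and 2 without, with sums of 442 to 519 CPM in siEP300.H2O2, 569 to 620 CPM in siNC.H2O2, 323 to 329 CPM in siEP300 and 351 to 393 CPM in siNC. Of the 8 fibroblast markers, 1 was higher and 4 lower with H2O2, and 4 were higher and 2 lower without. The 2 tested leukocyte markers split, 1 higher and 1 lower in each comparison, and of the 3 tested cardiomyocyte markers 2 were lower in each. The part of these marker changes in the EP300 siRNA results was not tested.

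The EP300 siRNA effect was then compared with and without H2O2 by the interaction term, the effect with H2O2 minus that without. TM7SF2 was called higher (0.78 ± 0.12 SE, adjusted p = 0.0030), where 1.12% of all tested genes were. INSIG1 (-0.57 ± 0.12 SE, adjusted p = 0.017), NPC1 (-0.50 ± 0.09 SE, adjusted p = 0.0082) and DHCR7 (-0.37 ± 0.08 SE, adjusted p = 0.020) were called lower, where 2.21% of all tested genes were. Estimates were below 0 for 31 of the 37 genes, with a median of -0.15, beside -0.00082 over all tested genes. FASN (-0.39 ± 0.11 SE) and SCD (-0.40 ± 0.13 SE) had adjusted p-values of 0.062 and 0.11. Without siNC library 1 and siNC.H2O2 library 7, 14 genes were lower and 2 higher, where 9.28% and 5.79% of all tested genes were. The 14 then included 4 of the 5 cholesterol movement genes and 5 of the 9 fatty acid genes. The count lower was 1 without siEP300 library 4 and 6 without siNC.H2O2 library 7. The DHCR7 call was lost without siNC library 2, siEP300 library 4 or 6, or siEP300.H2O2 library 11, and the INSIG1 call without siEP300 library 4, with adjusted p between 0.051 and 0.076. The INSIG1 call was also lost on deposited FPKM without the filter (-0.50, adjusted p = 0.059 in limma), while those of TM7SF2 and NPC1 held in every alternative run. Fibroblast markers also had lower interaction terms, 4 of 8 by the same call. Their summed level was 9952 to 10308 CPM in siEP300.H2O2, 11021 to 11854 CPM in siNC.H2O2, 12102 to 12547 CPM in siEP300 and 10250 to 10865 CPM in siNC, and their part in the interaction was not tested.

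**Figure D4:**
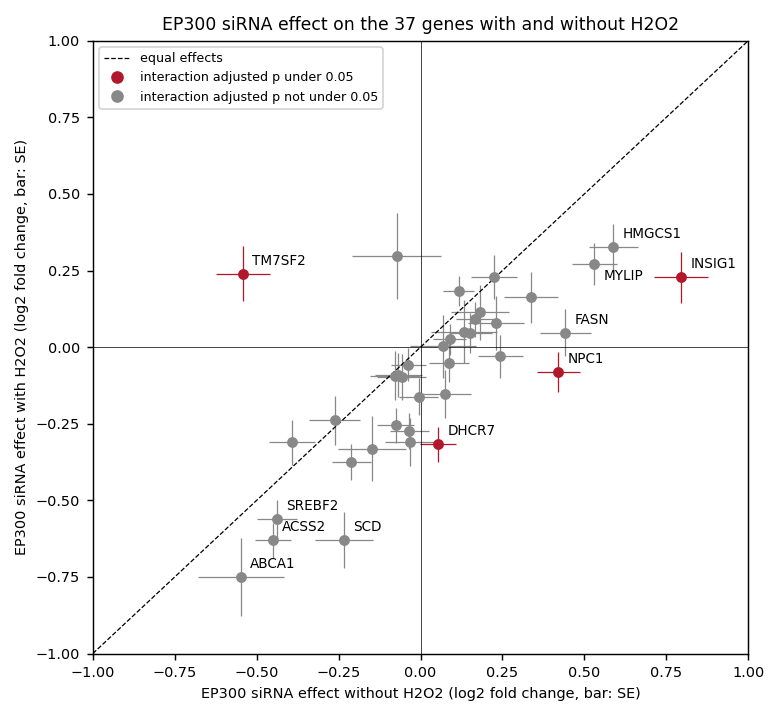
EP300 siRNA effect with H2O2 (vertical axis) against that without H2O2 (horizontal axis), log2 fold changes with SE bars, for the 37 genes; red points had an interaction with an adjusted p under 0.05 and the dashed line marks equal effects. TM7SF2 lies above the line at 0.24 with H2O2 and -0.54 without, and INSIG1, NPC1 and DHCR7 lie below it.

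Other genes of the pathways were read from lists beside the 37, and their counts stand against the shares of all tested genes given above for each comparison. Those are 28.4% higher and 30.6% lower for EP300 siRNA with H2O2, 30.1% and 31.4% without, 15.9% and 15.1% for H2O2 with EP300 siRNA, and 17.8% and 17.4% with control siRNA. Of 9 genes of SREBP processing and sterol-driven protein degradation, 5 rose and 1 fell with EP300 siRNA, both with and without H2O2. ERLIN1 and ERLIN2, membrane proteins of the degradation complex, rose by 0.86 and 0.68 with H2O2 and by 0.66 and 0.63 without. RNF145, a ubiquitin ligase of the endoplasmic reticulum, rose by 0.27 and 0.48. A mixed list held LXR receptors, cholesterol ester and efflux genes and other lipid genes. Of its 8 tested genes, 1 rose and 3 fell with EP300 siRNA with H2O2, and 2 rose and 3 fell without. CYP27A1, which makes an oxysterol, fell by 1.26 and 1.41 in these comparisons, and NR1H3, the receptor LXR alpha, by 0.47 and 1.01. Both were at low levels, with means between 4.65 and 5.60 CPM in the EP300 siRNA groups.

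Of 12 genes of the isoprenoid branches, 2 fell and 1 rose after H2O2 with EP300 siRNA, and 3 fell with control siRNA. Of 19 tested other genes of fatty acid synthesis and activation, 5 rose and 4 fell after H2O2 with EP300 siRNA, and 6 rose and 4 fell with control siRNA. ACACB, the mitochondrial acetyl-CoA carboxylase, fell by 0.82 with EP300 siRNA and by 0.87 with control siRNA, and SLC25A1, the citrate carrier, by 0.41 and 0.44. Of 18 genes of fatty acid oxidation, 1 rose and 2 fell after H2O2 with EP300 siRNA, and 5 fell with control siRNA. With EP300 siRNA, 5 of these 18 rose and 3 fell with H2O2, and 2 rose and 6 fell without. CPT1A, the gate of mitochondrial fatty acid import, fell with EP300 siRNA by 0.77 with H2O2 and by 0.87 without. No gene of these 5 lists was called in the interaction.

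Within the 33 genes with a promoter window, those with a CCAAT box and those without were set side by side. After H2O2 with EP300 siRNA, 14 of 20 genes with the motif and 6 of 13 without it were lower, with median log2 fold changes of -0.35 and -0.19. With control siRNA, 11 of 20 and 5 of 13 were lower, with medians of -0.26 and -0.22. For the E-box, 3 of 5 genes with it and 17 of 28 without it were lower with EP300 siRNA. With control siRNA these were 2 of 5 and 14 of 28. For the GC box they were 18 of 31 and 2 of 2 with EP300 siRNA, and 15 of 31 and 1 of 2 with control siRNA. The lower share of all tested genes with and without each motif was not taken, so these counts have no background. They are counts over genes of the same libraries, and no test was made of any difference. Of the promoters printed above, SREBF2, INSIG1, TM7SF2, HMGCS1 and DHCR7 hold the box and NPC1 does not.

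The strand setting of the authors' counting is not given in the sources used here. In GENCODE 29, 8 of the 37 genes share exon bases with another gene of the table, among them FADS1 and FADS2 with each other (490 bases on opposite strands) and ACAT2 with SOD2 (26.5% of the exon bases of ACAT2), so that reads in those bases cannot be told apart.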

How the data were processed

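RNA-seq of 12 AC16 libraries was analysed in 4 groups of 3, taken from the siRNA and H2O2 named in the titles. The authors deposited estimated counts per gene symbol, of which 12.0% to 13.8% per library were not whole numbers, and FPKM values, scaled to gene length and library total. HISAT, Bowtie2 and the build GRCh38.p13 are named in the submitters' processing notes, while versions, the counting program and its strand setting are not stated there. The estimated counts were rounded and tested with edgeR 4.0.16 in R 4.3.3 (TMM factors between 0.969 and 1.05, filterByExpr, quasi-likelihood test, 1 mean per group over all 12 libraries, two-sided, Benjamini-Hochberg over 13171 genes, called at 0.05). The common dispersion of 0.00451 is a biological coefficient of variation of 6.72%. The procedure was tested on simulated counts. Replicate libraries varied beyond sampling noise (chi-square per degree of freedom 1.78 to 18.1), so no pair was merged as a duplicate deposit; this does not show that they are independent cultures. Levels are CPM with TMM factors; FPKM was used for levels between genes.

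The members and gene lists were chosen with earlier results of these data known. All 37 members are named; values in every library are given for members called with a log2 fold change of at least 0.6 in size, for those called in the interaction, and for SREBF1, SREBF2, SCAP, INSIG1 and INSIG2. Of each other list, up to 5 genes with the smallest adjusted p could be named. Alternatives were RLE and upper-quartile factors, DESeq2 1.42.0, no filter, a fit to the compared groups alone, limma 3.58.1 on log2 FPKM with a pseudocount of 1 or 0.1, each library left out, and 2 libraries left out together. Promoters came from RefSeq (GRCh38.p14) and exon overlaps from GENCODE 29.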

Additional observations from a re-analysis of the deposited data

Results flagged for a closer look

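The EP300 siRNA effect was called different with and without H2O2 by the interaction term for 4 of the 37 genes. Of these, 1 was higher and 3 were lower, where 1.12% and 2.21% of all tested genes were. TM7SF2, the sterol reductase, had an interaction of 0.78 on the log2 scale, with an EP300 siRNA effect of 0.24 with H2O2 and -0.54 without. INSIG1, the endoplasmic reticulum retention protein, had an interaction of -0.57, with effects of 0.23 and 0.80. NPC1, the lysosomal cholesterol transporter, had an interaction of -0.50, with effects of -0.08 and 0.42. DHCR7, the last-step reductase, had an interaction of -0.37, with effects of -0.32 and 0.05. The calls of INSIG1 and DHCR7 were lost under some alternatives, while those of TM7SF2 and NPC1 held in every one. With 3 libraries in a group, single libraries were not tested as outliers.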

How the results depend on the processing

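Over the 185 estimates of the 37 genes in 5 comparisons, 3848 values were recomputed under the alternatives. No call reversed, 97 values lost a call and 120 gained 1. Calls were gained most often by EBP and ELOVL6 after H2O2 with EP300 siRNA, in 12 and 8 of 21 alternatives. Next to these were FDPS with EP300 siRNA without H2O2 (10 of 21) and PMVK after H2O2 with control siRNA (8 of 21). The number higher with EP300 siRNA without H2O2, 11, was 7 with upper-quartile factors, 7 on deposited FPKM with a pseudocount of 1 or 0.1, and 6 on unfiltered FPKM. The number higher after H2O2 with EP300 siRNA, 0, was 1 with DESeq2, without the filter, in the fit to the compared groups, and without siNC library 1 and siNC.H2O2 library 7 together, in each case ABCA1; it lay between 0 and 1 with single libraries left out. For the interaction, the number lower, 3, lay between 1 and 6 with single libraries left out and was 14 without siNC library 1 and siNC.H2O2 library 7 together, when the number higher was 2. The cause was not tested. The other counts of the 5 comparisons stayed within 1.5 times under the alternatives run.

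With single libraries left out, lost calls reached an adjusted p of at most 0.153 for EP300 siRNA with H2O2, 0.150 without H2O2, 0.118 and 0.127 for H2O2 with EP300 and control siRNA, and 0.076 for the interaction. Losses without H2O2 were ACAT2 (siNC 1), LSS (siNC 1 and 2, siEP300 4 to 6, siNC.H2O2 8), CYP51A1 (siNC 2, siEP300 5 and 6), HSD17B7 (siEP300 5), ACACA (siNC 2 and 3, siEP300 4 to 6) and SCD (siNC 1 and 3, siEP300 4 to 6). Besides TM7SF2 and INSIG1, losses with H2O2 were ACAT2 (siNC.H2O2 9), HSD17B7 (siNC.H2O2 7, siEP300.H2O2 10), STARD4 (siNC.H2O2 9, siEP300.H2O2 11) and ACLY (siNC.H2O2 9, siEP300.H2O2 10 and 11). Losses after H2O2 were MVD (siNC 2 and 3, siNC.H2O2 8 and 9) and INSIG2 (siNC.H2O2 8) with control siRNA, and with EP300 siRNA MVD (siEP300 4 and 6, siEP300.H2O2 10 and 12), FDFT1 (siEP300 5), CYP51A1 (siEP300 5 and 6, siEP300.H2O2 11), NSDHL (siEP300 4 to 6, siEP300.H2O2 10 and 11) and ACSS2 (siEP300 4 and 5, siEP300.H2O2 10 and 11). Changes of processing moved some calls further. For EP300 siRNA without H2O2, LSS was 0.03 on deposited FPKM (adjusted p = 0.52 to 0.55 in limma). With upper-quartile factors it was 0.07 (adjusted p = 0.25 in edgeR). ACACA in that comparison was 0.16 on unfiltered FPKM (adjusted p = 0.20 in limma). No paired analysis was possible because the library numbers run on from 1 to 12 and no number recurs between groups. The fit to the compared groups was not run for the interaction, which needs all 4 groups.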
